A study of Mus musculus with 12 samples.

Results

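Neural stem cells grown from the hippocampus of wild type C57BL/6 mice were compared before and after long culture. The early group was sampled at passage 2 (P2, 4 libraries) and the late group at passage 10 (P10 PBS, 4 libraries), with phosphate-buffered saline added to the cultures from passage 2 on. Both groups grew in DMEM/F12 with B27, antibiotics, epidermal growth factor, basic fibroblast growth factor and heparin, so that no group lacked mitogens. These 8 libraries are all those of both groups among 12 in the series; the other 4 come from passage 10 cultures given embryonic stem cell vesicles in place of saline, and entered the fit only to estimate the spread. All 34745 genes of the count table were taken, of which 16058 held enough reads to be tested. Libraries with the same replicate number carry the same culture code at both passages, but whether a code stands for 1 animal or 1 line of culture is not stated, nor is the age or sex of the donors, and p-values measure only the spread between these libraries. P10 PBS also differs from P2 by the added saline, so passage and saline cannot be told apart here.

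Neural stem cells in culture keep dividing under growth factors and can give rise to neurons, astrocytes and oligodendrocytes. Their regional origin is held by transcription factors, proteins that bind DNA and switch other genes on or off: Emx2, Lhx2 and related homeobox genes mark the forebrain, En2 the midbrain and hindbrain, and Hox genes the more posterior neural tube. Surface proteins receive signals, carry ions and nutrients and hold cells to each other, and secreted proteins form the matrix and signal to neighbours.

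Levels are CPM, the counts scaled to a common library size, and values of single libraries are given in the order of replicates 1 to 4. A gene is said to have risen or fallen when the adjusted p of edgeR's quasi-likelihood test (Benjamini-Hochberg over all genes tested) was under 0.05, and log2 fold changes are P10 PBS over P2 with their standard error. The 8 libraries held 10736538 to 15610366 counts. Defining neural stem cell markers summed to 8734 to 11749 CPM at P2 and 8514 to 9348 CPM at P10 PBS. Of 17 tested 0 were called, 5 were lower at an unadjusted p under 0.05, and DESeq2 called 1. The edgeR fit without P2 replicate 1 called 3 of them, all lower. They were Hes5 (-1.94, adjusted p = 0.0144), Sox2 (-0.68, adjusted p = 0.0245) and Sox9 (-0.51, adjusted p = 0.0427). In that fit 594 of all 16058 tested genes fell (3.7%). Markers of microglia and macrophages summed to 2.69 to 5.59 CPM over all 8 libraries, with C1qa and Tyrobp at 0 in each of them. Liver transcripts were present in P2 replicates 1 and 2 and in P10 PBS replicate 1, where Alb, which encodes albumin, lay at 16.4, 20.7 and 15.5 CPM; no other library exceeded 0.145 CPM. In a bulk sample, fewer cells of a type and less RNA per cell cannot be told apart.

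One early library stood apart. On the first principal component of the 8 libraries (35.4% of the variance) the position of P2 replicate 1 was -35.3, beside the P10 PBS libraries at -29.6 to -16, while the other P2 libraries lay at 7.05, 78.9 and 45.3. On the second (17.4%) it lay at 63, far from P10 PBS at -26.1 to -5.3 and from the other P2 libraries at 2.94, -2.81 and 13.3. Over all tested genes it was not closer to P10 PBS than every other P2 library. Its root-mean-square log2 distance to the P10 PBS mean was 0.666, against 0.613, 0.851 and 0.677 for P2 replicates 2 to 4. The dividing-cell markers of P2 replicate 1 summed to 3497 CPM, against 789 to 1581 CPM in the other P2 libraries and 2047 to 2747 CPM at P10 PBS. P2 libraries also varied more among themselves, with a median SD of 0.372 on the log2 scale against 0.255 at P10 PBS, and the SD was larger at P2 for 68.8% of tested genes.

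In all, 149 of 16058 tested genes were called (0.928%). Of these, 61 rose (0.38%) and 88 fell (0.548%). For scale, 959 of the 16058 were higher and 1229 lower at an unadjusted p under 0.05, and DESeq2 called 232 higher and 360 lower. Counts of families and lists below are to be read beside these. The number of edgeR calls depended on the libraries. Without P2 replicate 1, 578 genes rose (3.6%) and 594 fell (3.7%), and all 149 calls were among these, each in the same direction. Leaving out P2 replicate 2 or P10 PBS replicate 2 left 153 and 112 calls. Without P2 replicate 3 or P2 replicate 4 there were 77 and 60, and without P10 PBS replicate 1, 3 or 4 there were 41, 44 and 71. Of the 149 calls 27 held whichever 1 library was left out, and 122 were lost without at least 1. A fit to the 8 libraries alone called 39 genes. With a term for replicate number 167 were called, and 112 of the 149 held; of the 78 called genes named in this text, 13 did not, with adjusted p-values of 0.0504 to 0.0707 (Abca9, Arid3a, Cnpy1, Dhh, Dpysl3, Ebf2, En2, Fat4, H2-Q4, Hotairm1, Klrb1c, Lhx2 and Slc44a5). Without the 3 libraries that hold liver transcripts, 2613 genes were called, 1478 higher and 1135 lower; that fit also lacks P2 replicate 1.

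**Figure D1:**
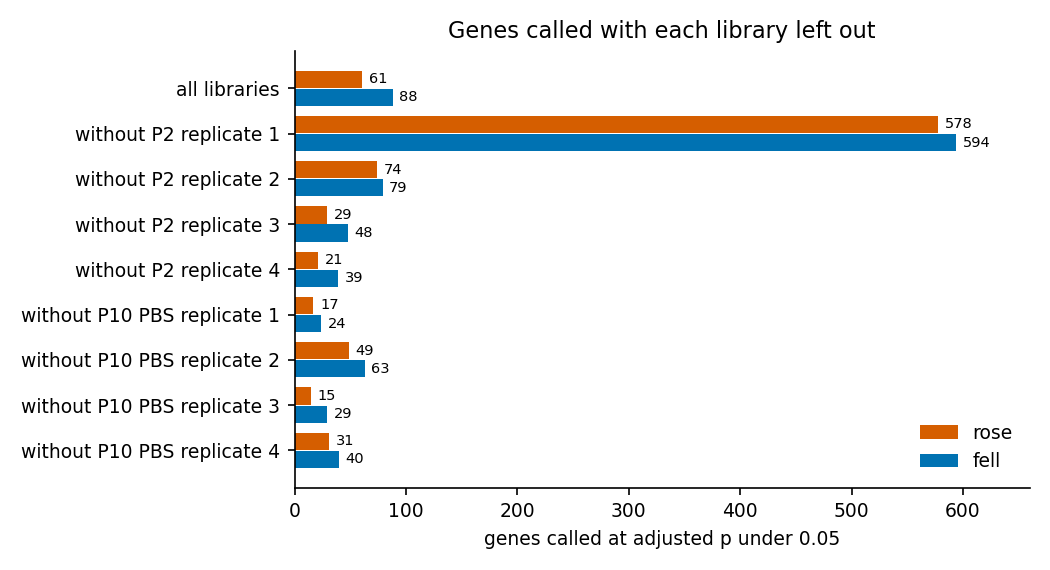
Genes called at an adjusted p under 0.05 in the edgeR fit (x axis, number of genes; orange bars rose at P10 PBS, blue bars fell) with all libraries and with each of the 8 libraries left out (y axis). The bars without P2 replicate 1 reach 578 and 594, against 61 and 88 with all libraries.

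The test without P2 replicate 1 made no use of that library, so its own values could be set against the genes called. Only the filter on low counts, set on all 12 libraries, had used it. For each of these 1172 genes its position was computed between the mean of the other P2 libraries, set to 0, and the mean of P10 PBS, set to 1. P2 replicate 1 was nearer to P10 PBS in 894 genes (76.3%), with a median position of 1.0 and quartiles of 0.53 and 1.3. The same measure for P2 replicates 2, 3 and 4, each over the genes called without it, gave 54 of 153 (35.3%), 8 of 77 (10.4%) and 5 of 60 (8.33%). For P10 PBS replicates 1 to 4 the share nearer to P2 was 4.88%, 29.5%, 6.82% and 8.45%. Those other sets were called with P2 replicate 1 in the fit, so their shares and its own are not on like terms. Among the 149 genes called with all libraries, P2 replicate 1 was nearer to P10 PBS in 15 (10.1%), but its values had a part in those calls. By class, among the 1172 genes, P2 replicate 1 was nearer to P10 PBS in 50 of 80 transcription factors (62.5%), 64 of 106 surface genes (60.4%) and 24 of 45 secreted genes (53.3%). The library labelled P2 replicate 1 was therefore on the late side for most of these 1172 genes and on the early side for a part of them. Npr2, a natriuretic peptide receptor, is among the former, with 12.1, 37.2, 36.1 and 30.1 CPM at P2 and 16.8, 13.7, 12.2 and 14.6 CPM at P10 PBS; its adjusted p was 0.00265 without that library and 0.117 with it. Npr2 was chosen after its values were seen.

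**Figure D2:**
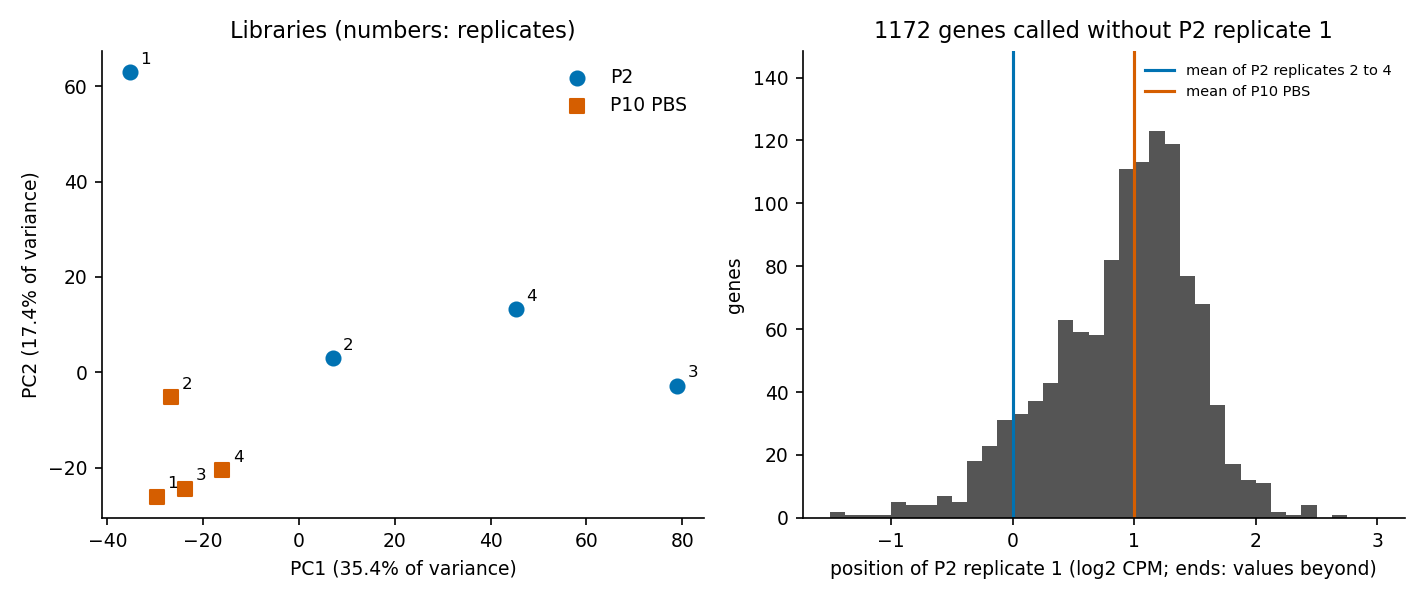
Left, the 8 libraries on the first 2 principal components (axes with their share of variance; blue circles P2, orange squares P10 PBS, numbers are replicates). Right, number of genes (y axis) by the position of P2 replicate 1 between the mean of the other P2 libraries (0) and the mean of P10 PBS (1), for 1172 genes called without it; most lie nearer to 1.

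Against this spread, 21 genes kept their call and direction in every fit named in their rule: DESeq2, limma-voom, another scaling, the 8 libraries alone, a term for replicate number and the omission of each library in turn. Of these firm calls, 16 fell and 5 rose, and they include 4 transcription factors, 4 surface genes and 4 secreted genes. P2 replicate 1 lay nearer to the other P2 libraries than to P10 PBS in each of the 21, with a median position of -0.04; since calls that hold with that library were asked for, this describes the choice.

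The forebrain homeobox genes Emx2 and Vax1 fell together. Emx2, which is needed for growth of the hippocampus, lay at 24.9, 22.4, 28.9 and 24.3 CPM at P2 and at 7.63, 10.6, 6.83 and 10.8 CPM at P10 PBS (log2 fold change -1.48 ± 0.18, adjusted p = 0.00329). All P2 libraries lay above all P10 PBS libraries. Groups that do not overlap were found in 916 of all 16058 tested genes (5.7%), 415 higher and 501 lower at P10 PBS, and a gene whose call holds in every fit was likely to be one of them. Vax1, a ventral forebrain and eye homeobox gene, lay at 2.85, 1.9, 2.03 and 1.65 CPM at P2 and at 0, 0.275, 0.187 and 0.145 CPM at P10 PBS (-3.80 ± 0.58, adjusted p = 0.0137). It was all but absent from the late libraries, with 110 counts over the P2 libraries and 7 over those of P10 PBS. Both genes are on chromosome 19, 288 kb apart, Vax1 at 59166187 to 59170056 and Emx2 at 59458372 to 59465357 in the coordinates of the deposited table.

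In the opposite direction, Hoxa5, which patterns the hindbrain and upper trunk, lay at 0, 0.0731, 0 and 0 CPM at P2 and at 2.04, 1.01, 1.4 and 0.508 CPM at P10 PBS with an adjusted p of 0.00616. The P2 libraries held 1 count in sum and those of P10 PBS 63, a ratio of 65.1 with a 95% exact interval of 11.3 to 2610 for counting error alone. Zfp618, a zinc finger gene, lay at 5.28, 6.36, 7.87 and 5.85 CPM at P2 and at 0.886, 1.93, 0.749 and 1.09 CPM at P10 PBS (-2.45 ± 0.33, adjusted p = 0.00668). For both genes the groups did not overlap.

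A promoter was at hand for 16 of the 21 firm calls. The promoters of 5 firm calls are shown, 3 of genes that fell and 2 of genes that rose: the neighbours Vax1 and Emx2, the growth suppressor Ndn, Hoxa5 and the glutamate receptor subunit Gria4. Each runs 5′ to 3′ from 250 bases before to 50 after the start of the gene in RefSeq (GRCm38.p6), with CG pairs, the site of DNA methylation, in capitals. For Emx2 and Vax1 this start differs from that of the deposited coordinates. The Emx2 stretch lies wholly inside the gene as deposited, and the Vax1 stretch wholly before its deposited start. For Ndn, Hoxa5 and Gria4 the starts are the same.
Vax1 (chr19:59170348-59170647, minus strand): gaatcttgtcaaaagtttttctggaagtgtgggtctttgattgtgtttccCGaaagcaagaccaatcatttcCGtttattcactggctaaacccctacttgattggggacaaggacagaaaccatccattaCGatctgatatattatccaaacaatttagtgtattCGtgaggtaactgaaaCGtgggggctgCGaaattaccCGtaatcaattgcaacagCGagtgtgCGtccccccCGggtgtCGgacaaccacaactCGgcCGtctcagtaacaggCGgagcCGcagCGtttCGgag
Emx2 (chr19:59458440-59458739, plus strand): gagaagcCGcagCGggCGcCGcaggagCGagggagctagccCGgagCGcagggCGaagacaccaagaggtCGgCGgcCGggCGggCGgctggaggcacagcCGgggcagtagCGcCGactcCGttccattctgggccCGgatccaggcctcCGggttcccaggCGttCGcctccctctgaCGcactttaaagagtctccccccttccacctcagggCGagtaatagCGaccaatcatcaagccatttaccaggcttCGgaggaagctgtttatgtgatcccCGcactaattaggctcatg
Ndn (chr7:62348027-62348326, plus strand): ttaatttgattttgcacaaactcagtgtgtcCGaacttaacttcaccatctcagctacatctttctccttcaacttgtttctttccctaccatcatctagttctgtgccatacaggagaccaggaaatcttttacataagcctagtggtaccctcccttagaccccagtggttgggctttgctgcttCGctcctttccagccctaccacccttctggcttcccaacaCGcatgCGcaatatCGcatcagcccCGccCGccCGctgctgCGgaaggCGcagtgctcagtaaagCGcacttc
Hoxa5 (chr6:52204538-52204837, minus strand): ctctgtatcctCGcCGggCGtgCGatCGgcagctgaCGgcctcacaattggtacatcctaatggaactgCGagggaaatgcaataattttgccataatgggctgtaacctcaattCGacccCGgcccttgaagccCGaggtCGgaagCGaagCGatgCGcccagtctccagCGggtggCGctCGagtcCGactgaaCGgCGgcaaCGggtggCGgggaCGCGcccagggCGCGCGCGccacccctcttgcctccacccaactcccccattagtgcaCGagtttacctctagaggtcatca
Gria4 (chr9:4796185-4796484, minus strand): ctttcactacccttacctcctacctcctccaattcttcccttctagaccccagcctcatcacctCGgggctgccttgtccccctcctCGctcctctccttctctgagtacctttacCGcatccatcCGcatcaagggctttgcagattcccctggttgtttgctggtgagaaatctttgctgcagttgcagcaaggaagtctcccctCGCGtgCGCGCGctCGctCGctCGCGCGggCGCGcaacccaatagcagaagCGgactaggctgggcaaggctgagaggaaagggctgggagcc
They hold 17, 26, 11, 29 and 17 CG pairs in this order, against a median of 7 (quartiles 3 and 21) over the 27025 genes with a promoter in the table. The promoters of the other firm calls are not given, so these 5 do not describe the firm calls as a set. CG is present in 94.2% of all these promoters. The letters TATAAA, searched on both strands, are in 14.2% of them and in none of the 5. Only 75.2% of the 149 called genes have a promoter in the table, so a comparison of CG content between the called genes and others is void and was not made.

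Among the firm surface genes 3 fell and 1 rose. Gria4, a subunit of the AMPA-type glutamate receptor, lay at 22.3, 48.1, 31.1 and 28 CPM at P2 and at 106, 116, 116 and 120 CPM at P10 PBS (1.82 ± 0.22, adjusted p = 0.00359). Each late library held over 100 CPM, and they lay close together. Sez6, a membrane protein of neurons that shapes dendrites, lay at 130, 90.2, 123 and 122 CPM at P2 and at 51.4, 50.2, 47.8 and 43.5 CPM at P10 PBS (-1.27 ± 0.13, adjusted p = 0.000918). Slc12a7, a potassium-chloride cotransporter, went from 36.2, 19.5, 28.2 and 19.8 to 8.45, 7.34, 8.42 and 9.15 CPM (-1.63 ± 0.23, adjusted p = 0.00889). Bdkrb2, the bradykinin B2 receptor, went from 5.06, 7.09, 2.45 and 4.86 to 0.409, 0.459, 0.374 and 0.218 CPM (-3.72 ± 0.44, adjusted p = 0.00327). The late libraries lay below the early ones in the 3 that fell and above them in Gria4.

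All 4 firm secreted genes fell. Slit1, a ligand that repels growing axons and migrating cells through Robo receptors, lay at 42.0, 51.9, 56.8 and 52.3 CPM at P2 and at 8.04, 8.54, 11.2 and 12.5 CPM at P10 PBS (-2.33 ± 0.2, adjusted p = 0.00026). Gas6, a ligand of the Axl, Tyro3 and Mertk receptors, went from 87.1, 111, 88.9 and 105 to 36.9, 44.3, 25.7 and 26.1 CPM (-1.56 ± 0.18, adjusted p = 0.00243). The lowest P2 library of each was well above the highest of P10 PBS. The matrix genes Thbs2 and Mmp2 were near the limit of detection late in culture. Thbs2, a thrombospondin, went from 11, 5.84, 12.1 and 8.82 to 1.63, 0.826, 0.187 and 0.29 CPM, and Mmp2, a gelatin-degrading protease, from 15.8, 4.38, 10.6 and 8.82 to 0.477, 2.02, 1.22 and 0.726 CPM. Their log2 fold changes were -3.63 ± 0.55 and -3.18 ± 0.47.

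The other firm calls belong to none of these classes. Ndn, an imprinted gene for the growth suppressor necdin, had the smallest adjusted p of all tested genes (0.000237), at 154, 132, 139 and 164 CPM at P2 and 33.2, 35.3, 39.8 and 38.7 CPM at P10 PBS (-2.0 ± 0.16). Ucp2, a carrier of the inner mitochondrial membrane, went from 11.4, 51.9, 32.2 and 18.7 to 1.91, 3.58, 5.24 and 3.7 CPM (-2.99 ± 0.46), and Acot11, an acyl-CoA thioesterase, from 32.3, 37.6, 31.7 and 36.2 to 12.7, 12.9, 9.26 and 7.19 CPM (-1.71 ± 0.19). The early libraries differed widely in Ucp2, and all stayed above the late ones. Paqr7, a membrane progestin receptor, went from 23.5, 40.5, 74.4 and 56.6 to 5.52, 5.97, 11.1 and 7.04 CPM (-2.72 ± 0.39), and Tmco4, a transmembrane protein, from 6.42, 7.82, 10.7 and 8.41 to 2.66, 2.02, 1.78 and 2.11 CPM (-1.95 ± 0.28). Rhbdf2, an inactive rhomboid needed for the release of membrane-bound growth factors and TNF, held 71 counts over the P2 libraries and 1 over those of P10 PBS, a ratio of 68.8 (95% exact interval 11.9 to 2754, counting error only; adjusted p = 0.00386).

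The remaining 3 rises were of a kinase and of structural proteins. Frk, a Src-related tyrosine kinase, went from 1.14, 1.39, 2.79 and 1.9 to 7.77, 9.73, 10.1 and 7.55 CPM (2.29 ± 0.29, adjusted p = 0.00408). Palmd, palmdelphin, went from 4.56, 3.87, 2.2 and 3.79 to 21.2, 13.4, 15.9 and 12.6 CPM (2.12 ± 0.29, adjusted p = 0.00656). Kank4, of a family that links the actin cytoskeleton to adhesions, went from 5.56, 11.3, 5.24 and 4.45 to 26.4, 24.3, 25 and 24 CPM (1.91 ± 0.25, adjusted p = 0.00579). Every late library exceeded every early one in all 3.

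**Figure D3:**
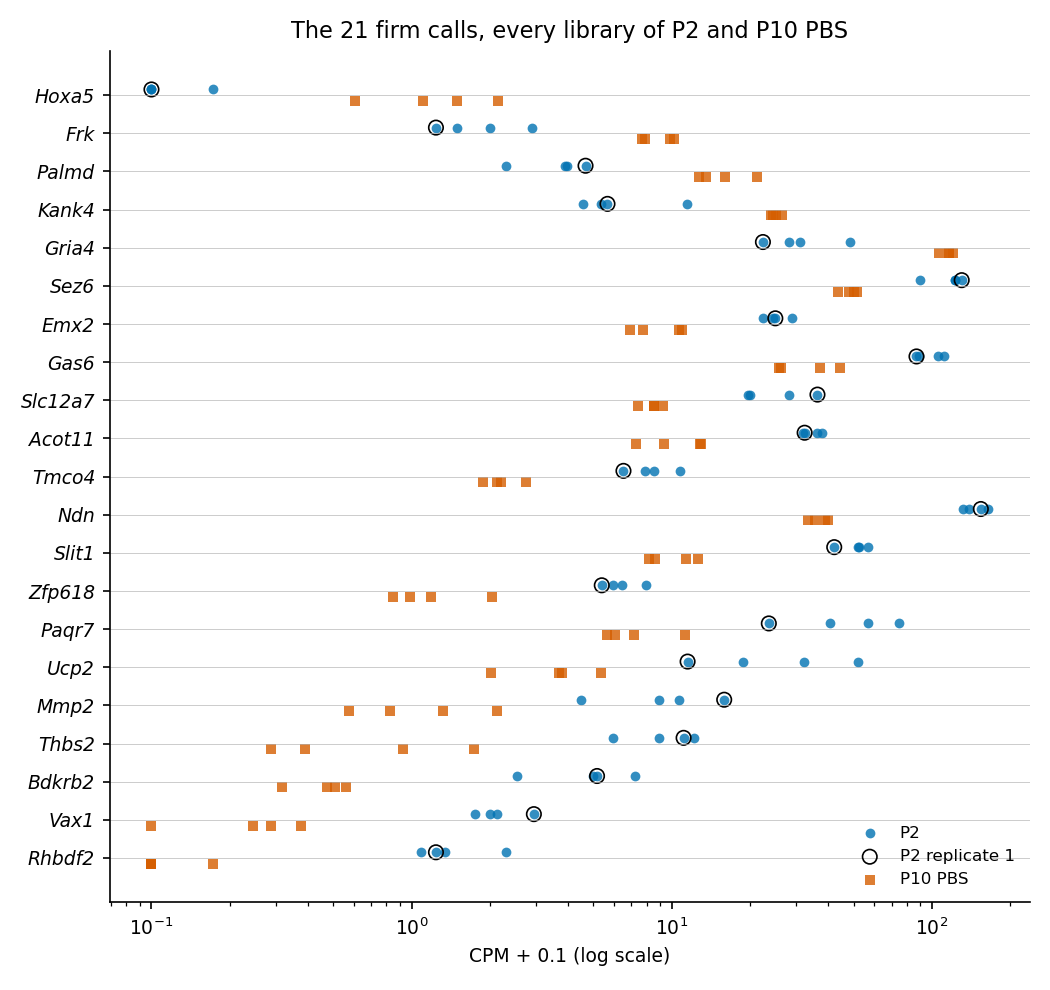
CPM + 0.1 on a log axis (x) of the 21 firm calls (y) in every library: blue circles P2, orange squares P10 PBS, and a ring around P2 replicate 1. In each gene the 4 P2 libraries and the 4 P10 PBS libraries do not overlap, and P2 replicate 1 lies nearer to the other P2 libraries than to P10 PBS, within their range in 8 genes, past it on the late side in 7 (farthest in Ucp2 and Paqr7) and past it on the far side in 6. Hoxa5 and the other rises are at the top and the falls below.

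Among 844 tested transcription factors, 9 rose and 12 fell (2.49% called, against 0.928% of all genes tested; 9.48% against 7.3% without P2 replicate 1), with a median log2 fold change of -0.11 against -0.01 over all genes tested; 292 of the 844 lay above 0, as did 7836 of all 16058. Forebrain homeobox genes supplied 3 of the falls. Lhx2, which specifies the cortex, went from 55.1, 49.7, 60.1 and 38.3 to 33.2, 27.2, 18.8 and 27.1 CPM (-0.93 ± 0.18, adjusted p = 0.0304), beside Emx2 and Vax1. Isl2, a LIM-homeobox gene of motor and retinal neurons, was the 1 called gene of the same 13 that rose, from 0.571, 1.17, 0.423 and 0.412 to 3.81, 8.26, 4.12 and 1.67 CPM (2.75 ± 0.52). The neighbouring homeobox family, 41 tested genes of the Dlx, Nkx, Gsx, Msx, Barhl and related groups, held 3 rises and 1 fall. En2, the midbrain and hindbrain gene, lay at 1.35, 3.73, 0.846 and 1.24 CPM at P2 and at 30.6, 3.49, 14.7 and 15.6 CPM at P10 PBS (3.15 ± 0.62, adjusted p = 0.0318). P10 PBS replicate 2 overlapped P2 in En2, which was high in the other 3 late libraries. Dmbx1, another midbrain homeobox gene, and Hhex, of the anterior endoderm and blood, rose from at most 0.357 CPM to 1.1 to 2.06 CPM and from at most 0.219 CPM to 0.581 to 1.65 CPM. Tshz2, a teashirt zinc finger homeobox gene, fell (-1.39 ± 0.25).

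Of 39 Hox genes 2 held enough reads for a test, which a gene could reach through the late libraries alone. Both were higher at an unadjusted p under 0.05 and called by DESeq2, and 1, Hoxa5, was called by edgeR. The antisense transcript Hotairm1 of the Hoxa cluster on chromosome 6, 39.6 kb from Hoxa5, rose as well (2.45 ± 0.45, adjusted p = 0.0248).

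Factors outside the homeobox families moved in both directions. Foxc1, a forkhead gene of meninges and vessels, went from 5.71, 12.6, 7.11 and 7.26 to 34.1, 17.8, 40.8 and 26.9 CPM (1.87 ± 0.28, adjusted p = 0.0134). Zic5, a zinc finger gene of the dorsal neural tube, went from 4.49, 7.82, 5.16 and 5.94 to 17, 10.0, 19.8 and 17.9 CPM (1.46 ± 0.23, adjusted p = 0.0141). Ebf1 and Ebf2, helix-loop-helix factors of neurons, B cells and fat, rose as well. Ebf1 went from 3.05 to 7.27 CPM at P2 to 11.2 to 19.1 CPM at P10 PBS (1.67 ± 0.28), and Ebf2 from 2 counts to 57, a ratio of 29.4 (95% exact interval 7.78 to 249). The markers of pericytes, fibroblasts and meninges, among which Foxc1 was listed, summed to 255 to 593 CPM at P2 and 229 to 373 CPM at P10 PBS, nearly all of it Cspg4, which is also a marker of oligodendrocyte progenitors. Without Cspg4 the sum was 10.7 to 26.2 CPM at P2 and 22.9 to 52.0 CPM at P10 PBS, and without Foxc1 as well 5.0 to 14.0 and 4.84 to 12.3 CPM. Acta2, of smooth muscle and pericytes, lay at 1.39 to 3.32 CPM at P2 and at 6.66, 1.3, 7.98 and 6.29 CPM at P10 PBS (1.32 ± 0.54, adjusted p = 0.309). Of the 13 markers 5 were tested, with a median log2 fold change of -0.51, and Foxc1 alone was called. Col1a1, Tagln and Cspg4 lay below 0 (-1.22 ± 0.7, -0.53 ± 0.29 and -0.51 ± 0.28). Lum is at 0 in all 8 libraries. The part of these cell types in the rises was not tested.

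The falls outside the homeobox families include regulators of neurons and glia. Sox10, which drives the oligodendrocyte lineage, lay at 5.28, 108, 119 and 55.1 CPM at P2 and at 1.84, 2.94, 3.18 and 5.66 CPM at P10 PBS (-4.39 ± 0.8, adjusted p = 0.0243). P2 replicate 1 was as low in Sox10 as the late libraries. Of 11 tested markers of oligodendrocytes and their progenitors Sox10 alone was called; the median log2 fold change was -1.09, 6 were lower and 1 higher at an unadjusted p under 0.05, DESeq2 called 4 lower, and 6 fell without P2 replicate 1. The higher one was Bcas1, at 12.9 to 43.9 CPM at P2 and 46.2 to 68.2 CPM at P10 PBS (0.84 ± 0.3, adjusted p = 0.251), without overlap. Gpr17, a receptor of differentiating progenitors, lay at 1.29, 259, 183 and 45.8 CPM at P2 and at 21.5, 34.0, 7.24 and 11.9 CPM at P10 PBS (adjusted p = 0.231, or 0.0133 without P2 replicate 1). Pdgfra, the progenitors' growth factor receptor, lay at 15.8, 96.9, 130 and 85.9 CPM and at 12.8, 20.5, 16.1 and 19.5 CPM (-2.27 ± 0.52, adjusted p = 0.0637, or 0.00439 without P2 replicate 1). P2 replicate 1 lay with or below the late libraries in both. The whole list summed to 2400 to 3642 CPM at P2 and 2427 to 3252 CPM at P10 PBS, most of it from Olig1, Olig2 and Cspg4, of which Olig1 and Olig2 had log2 fold changes of 0.12 ± 0.14 and 0.25 ± 0.15 without a call. Without those 3 genes it summed to 116, 712, 767 and 356 CPM at P2 and to 148 to 213 CPM at P10 PBS.

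Myt1 (-1.28 ± 0.25), Insm1 (-1.99 ± 0.38) and Bcl11b (-0.96 ± 0.18), zinc finger factors of neuronal differentiation, fell, as did Stat6 (-1.47 ± 0.28), which carries interleukin-4 signals, and Arid3a (-2.19 ± 0.38). Of 13 tested neuron markers 0 were called, with a median of -0.42; 5 were lower and 0 higher at an unadjusted p under 0.05, and DESeq2 called 2. They summed to 687 to 919 CPM at P2 and 592 to 912 CPM at P10 PBS, most of it Map2. The neurofilament genes Nefl and Nefm lay at 2.12 to 8.0 and 3.74 to 6.28 CPM at P2 and at 0.278 to 1.74 and 0.557 to 2.33 CPM at P10 PBS (adjusted p = 0.163 and 0.146). Both are low in level and among the largest falls of the list. Syt1, Snap25 and Elavl3 lay above 0 (0.82 ± 0.45, 0.36 ± 0.37 and 0.16 ± 0.28), and the other tested neuron markers below, with Gap43 and Map2 at -0.03 ± 0.32 and -0.15 ± 0.16. Of 10 astrocyte markers 0 were called, with a median of -0.25; 5 were lower at an unadjusted p under 0.05, DESeq2 called 0, and 4 fell without P2 replicate 1. The astrocyte list summed to 1478, 2555, 5112 and 3298 CPM at P2 and to 1941 to 2960 CPM at P10 PBS. The part of these cell types in the falls was not tested.

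Of 365 tested genes of the Zfp, Zscan and other numbered zinc fingers, 2 fell and 0 rose, Zfp618 and Zfp783; 83 of the 365 lay above 0 and the median was -0.14, or -0.10 on the log2(FPKM + 1) scale. At an unadjusted p under 0.05, 37 of these 365 were lower and 4 higher, against 1229 and 959 of all 16058 tested genes. DESeq2 called 9 of the 365 lower and 1 higher, against 360 and 232 of all. By the main test 88 of all tested genes fell (0.548%), a share that the 2 falls here do not exceed. Zfp783 is annotated as a transcribed pseudogene, and its reads may be shared with related genes.

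Several families held no call. The 14 tested genes of the E2F, p53 and MYB group had a median of 0.42 with 12 above 0, and 0 were called (3 were higher at an unadjusted p under 0.05, and DESeq2 called 1). Without P2 replicate 1, 6 of the 14 rose. Tfdp1, the E2F partner, lay at 124, 85.0, 42.0 and 45.3 CPM at P2 and at 94.1 to 110 CPM at P10 PBS. The 43 bZIP genes (Jun, Fos, ATF, CREB, Maf, CEBP, NFE2) had a median of -0.23 with 10 above 0 and 0 called (10 were lower at an unadjusted p under 0.05, DESeq2 called 2), and 6 fell without P2 replicate 1. Jun lay at 180 to 366 CPM at P2 and at 175 to 209 CPM at P10 PBS.

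Of the 21 calls among transcription factors 6 held whichever library was left out, the 4 firm ones, Foxc1 and Zic5. Without P2 replicate 1 the count was 80 (29 higher, 51 lower). It was 10 and 8 on omitting P2 replicate 3 or 4, and 9 and 6 on omitting P10 PBS replicate 1 or 3. Without P10 PBS replicate 2 or 4, 13 of the 21 calls held, and without P2 replicate 2, 19 of them. The highest adjusted p with 1 library left out was 0.0871 for Sox10 and Lhx2, 0.113 for En2 and 0.102 for Myt1.

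Surface genes numbered 1050 tested, of which 9 rose and 13 fell (2.1% called, against 0.928% of all genes; 10.1% against 7.3% without P2 replicate 1), with a median of -0.03. Besides Gria4, which rose, 2 of 44 transmitter receptor channels fell (9 were lower and 3 higher at an unadjusted p under 0.05). Grin2c, an NMDA receptor subunit, went from 43.9, 12.1, 18.4 and 43.1 to 0.817, 0.643, 1.4 and 5.52 CPM (-3.78 ± 0.76, adjusted p = 0.0362), and Gabrb1, a GABA-A receptor subunit, from 8.41 to 14.2 CPM to 4.09 to 5.42 CPM (-1.15 ± 0.21). The groups did not overlap in either. Of 140 G-protein-coupled receptors 3 fell and 0 rose (20 were lower and 13 higher at an unadjusted p under 0.05, and DESeq2 called 9 lower and 4 higher), and their median was 0.00 with 70 above 0 and 70 below. Besides Bdkrb2 they were Gabbr2, of the GABA-B receptor, from 31.8, 17.6, 18.4 and 11.6 to 9.47, 8.91, 5.43 and 5.59 CPM (-1.43 ± 0.29), and the adhesion receptor Adgre5, from 21.7 to 30.7 CPM to 10.8 to 14.6 CPM (-0.97 ± 0.16).

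Adhesion molecules changed in both directions. Thy1, a membrane-anchored glycoprotein of neurons and stromal cells, went from 19.4, 43.3, 62.3 and 36.4 to 6.47, 2.11, 7.21 and 10.7 CPM (-2.59 ± 0.42, adjusted p = 0.0153). Mcam, 85.9 kb from it on chromosome 9, went from 46.2, 41.9, 32.2 and 43.3 to 17.4, 29.4, 16.8 and 21.6 CPM (-0.94 ± 0.18). Tenm1, a teneurin, went from 1.39 to 3.3 CPM to at most 0.374 CPM (-3.57 ± 0.56). Efna5, a repulsive ligand of Eph receptors, fell (-1.5 ± 0.31), and 16 of the 20 tested Eph and ephrin genes lay below 0. Cadherins were among the rises. Fat4, a giant cadherin of planar polarity, went from 199, 248, 250 and 202 to 397, 267, 510 and 389 CPM (0.80 ± 0.17, adjusted p = 0.0483), and Clstn2, a calsyntenin, from 4.42, 2.85, 3.21 and 6.1 to 9.74, 9.18, 10.0 and 12.2 CPM (1.31 ± 0.26).

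Cd109, a membrane-anchored protein that dampens TGF-beta signals, lay at 26.7, 67.6, 29.3 and 31.9 CPM at P2 and at 238, 87.1, 99.3 and 124 CPM at P10 PBS (1.82 ± 0.35, adjusted p = 0.0302). P2 replicate 2 was high and P10 PBS replicate 1 higher still. Cd163, known as a scavenger receptor of macrophages, rose from 1.93 to 3.8 CPM to 6.89 to 8.79 CPM (1.42 ± 0.25), with every late library above every early one. Of the macrophage markers, C1qa and Tyrobp were at 0 in all 8 libraries, while Cd68 lay between 1.22 and 3.54 CPM over the 8 (0.47 ± 0.32, adjusted p = 0.543), P2ry12 at 0.326 to 1.09 and 0.434 to 1.02 CPM and Csf1r at 0.163 to 0.928 and 0.464 to 1.09 CPM. Their part in the rise was not tested. H2-Q4 encodes an MHC class I heavy chain and rose from 0.93 to 2.56 CPM to 3.12 to 7.55 CPM (1.82 ± 0.33); reads of this family can be shared between near-identical copies, so its level is uncertain.

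Channels and transporters gave few calls. Kcne1l, a potassium channel accessory subunit, fell from 3.0 to 13.3 CPM to at most 0.799 CPM (-3.65 ± 0.68). Of 241 solute carriers, Slc44a5, of the choline transporter-like family, rose (1.03 ± 0.19) and Slc12a7 fell. The ABC transporter Abca9 lay at 0.577 to 1.32 CPM at P2 and at 5.99, 1.65, 5.99 and 5.59 CPM at P10 PBS (2.23 ± 0.42). P10 PBS replicate 2 lay near the early libraries in Abca9.

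Receptor tyrosine kinases and integrins, which read growth factors and matrix, held no call. Of 30 receptor tyrosine kinases 0 were called (2 were higher and 2 lower at an unadjusted p under 0.05, and DESeq2 called 1). Egfr, the receptor of the growth factor in the medium, lay at 1139, 582, 923 and 1029 CPM at P2 and at 811, 947, 902 and 866 CPM at P10 PBS (-0.06 ± 0.17), and the groups overlapped. Ntrk2, the receptor of brain-derived neurotrophic factor, lay at 456, 954, 1695 and 1029 CPM and at 784, 578, 734 and 804 CPM (-0.51 ± 0.28, adjusted p = 0.446, or 0.0374 without P2 replicate 1). Of 21 integrins 0 were called (3 passed at an unadjusted p under 0.05, and DESeq2 called 1), and Itgb1 lay at 642 to 780 and 675 to 791 CPM.

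Of the 22 surface calls 5 held whichever library was left out, the 4 firm ones among them. Their count was 106 without P2 replicate 1 (28 higher, 78 lower), 12 and 13 without P2 replicates 3 and 4, and 5, 7 and 10 without P10 PBS replicates 1, 3 and 4. With 1 library left out, Fat4 reached an adjusted p of 0.145. In a class drawn from the Gene Ontology term for the plasma membrane, 37 of 2655 genes were called, a smaller share than 22 of 1050.

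Secreted genes numbered 395 tested, of which 1 rose and 13 fell (3.54% called, against 0.928% of all genes; 11.4% against 7.3% without P2 replicate 1). The median was -0.14, or -0.04 on the log2(FPKM + 1) scale, and 157 lay above 0. At an unadjusted p under 0.05, 22 were higher and 59 lower. Matrix proteins gave 4 falls of 53 tested. Fbln2, a fibulin of elastic fibres and basement membranes, went from 529, 710, 522 and 650 to 243, 281, 348 and 291 CPM (-1.05 ± 0.17, adjusted p = 0.0153), the largest fall in CPM of any called gene, with no overlap. Mfap2, a microfibril protein, went from 3.0, 7.38, 8.29 and 6.76 to 1.98, 2.3, 1.22 and 1.45 CPM (-1.86 ± 0.32), and Matn4, a matrilin, from 113 counts to 8 (-3.66 ± 0.75). Collagens held 0 calls of 29 (6 were lower at an unadjusted p under 0.05, and DESeq2 called 4), with a median of -0.33. Laminins and other basement membrane genes held 0 of 18 (2 were lower, DESeq2 called 1); Agrn lay at 439 to 950 CPM at P2 and 549 to 660 CPM at P10 PBS.

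Proteases that cut matrix or prohormones gave 3 falls of 76. Mmp14, which activates Mmp2 at the cell surface, went from 67.5, 72.5, 238 and 192 to 21, 15.1, 30.2 and 49.8 CPM (-2.29 ± 0.48, adjusted p = 0.0428). P2 replicates 3 and 4 were the high libraries. Pcsk2, a prohormone convertase, went from 3.07, 4.46, 5.24 and 5.85 to 0.409, 1.65, 0.655 and 0.726 CPM (-2.45 ± 0.42).

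Growth factors and morphogens made up most of the rest. Metrn, meteorin, which acts on glial differentiation and axon growth, was the 1 secreted gene that rose, from 330, 305, 219 and 200 to 560, 450, 422 and 397 CPM (0.79 ± 0.17, adjusted p = 0.0475). Mdk, the heparin-binding factor midkine, went from 2.14, 1.1, 3.21 and 3.3 to 0.817, 0.275, 0.281 and 0.508 CPM (-2.30 ± 0.47). Dhh, desert hedgehog, went from 25.1, 41.4, 4.74 and 14.8 to 4.63, 1.65, 1.5 and 2.9 CPM (-2.98 ± 0.58); its lowest early value and its highest late value nearly met. Gdf15, a stress-induced member of the TGF-beta family, went from 16.3, 33.7, 26.8 and 23.7 to 8.86, 8.91, 10.3 and 11.2 CPM (-1.35 ± 0.26). Cytokines, chemokines and complement held 0 calls of 32 (1 was higher at an unadjusted p under 0.05, DESeq2 called 0), and IGF-binding proteins 0 of 6 (1 and 0). Igfbp3 lay at 710, 737, 273 and 696 CPM at P2 and at 1592, 987, 749 and 732 CPM at P10 PBS (0.75 ± 0.32, adjusted p = 0.322), with P10 PBS replicate 1 high.

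The 4 firm calls are those of the 14 secreted genes that held whichever library was left out. The count was 45 without P2 replicate 1 (9 higher, 36 lower), 8 and 5 without P2 replicates 3 and 4, and 4, 5 and 6 without P10 PBS replicates 1, 3 and 4; Metrn was among the calls lost, with an adjusted p of up to 0.133. In a class drawn from the Gene Ontology term for the extracellular space, 14 of 616 genes were called, a smaller share than 14 of 395.

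**Figure D4:**
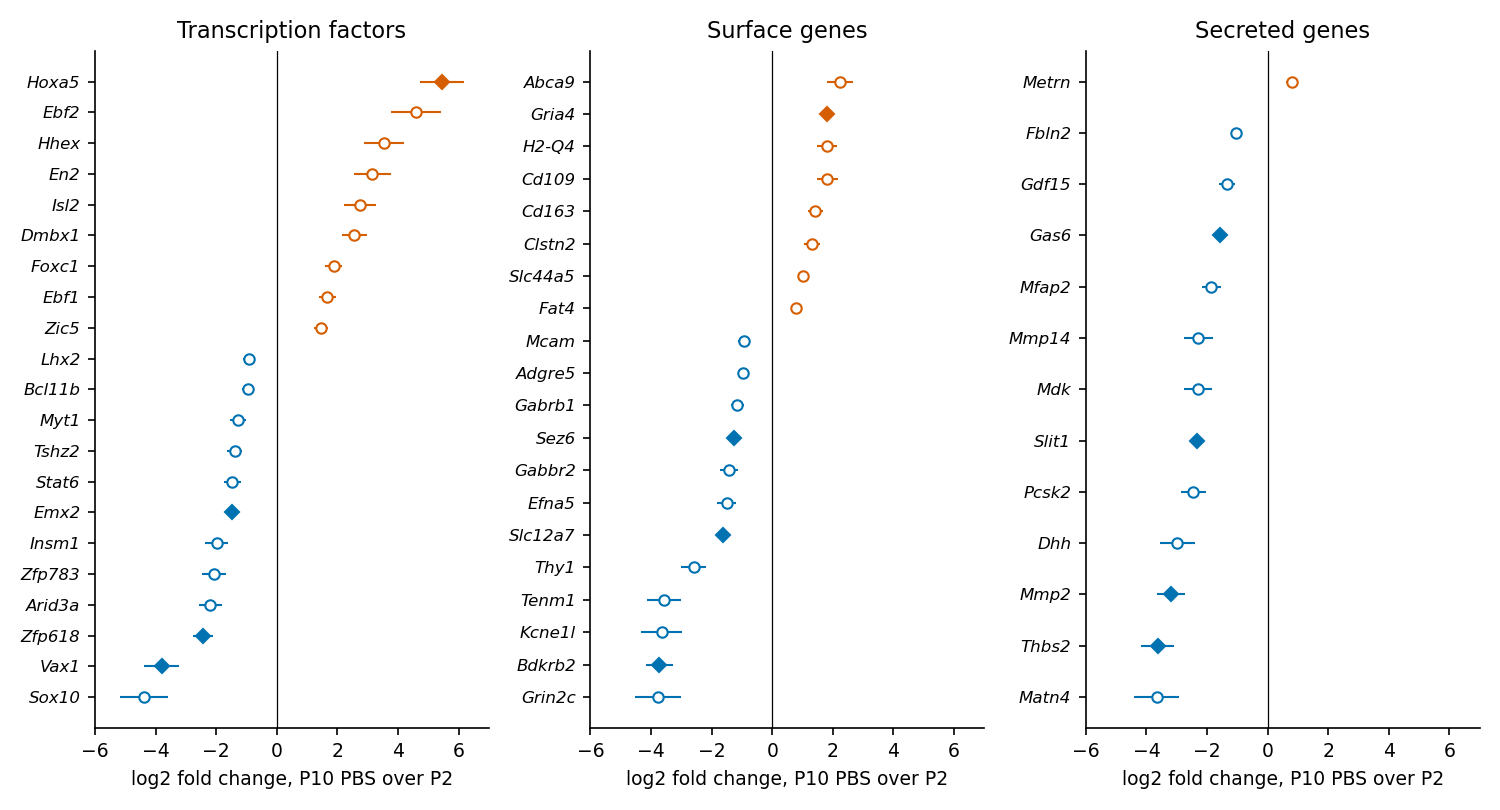
Log2 fold change of P10 PBS over P2 with its standard error (x axis) for called transcription factors, surface genes and secreted genes (y axis; up to 12 a direction by adjusted p). Orange rose and blue fell, and filled diamonds are the firm calls. Hoxa5 and Gria4 are the firm rises, and Metrn the 1 rise among secreted genes.

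By expression level, the calls lay in the lower and middle ranges. Of 1043 tested genes with a mean under 1 CPM over the 8 libraries, 6 rose and 2 fell. Of 4960 genes from 1 to 10 CPM, 20 rose and 39 fell, 1.19% of the class in sum. From 10 to 100 CPM, 30 rose and 42 fell of 7720 (0.933%), and from 100 to 1000 CPM, 5 rose and 5 fell of 2279 (0.439%). Of 56 genes over 1000 CPM 0 were called; 3 were higher and 3 lower at an unadjusted p under 0.05, and DESeq2 called 2. With 0.928% of all tested genes called, 0 of 56 is no result about this class. The median standard error of the log2 fold change was 0.487 under 1 CPM, 0.337, 0.184 and 0.158 in the next classes and 0.182 over 1000 CPM. The median size of the log2 fold change was 0.403 under 1 CPM and 0.32, 0.187, 0.159 and 0.213 in the classes above. Without P2 replicate 1, the share called was 2.59%, 6.41%, 8.35%, 7.9% and 3.57% from the lowest class to the highest. With classes drawn by mean FPKM, which also divides by gene length, 125 of the calls lay under 10 against 67 by CPM. More tested genes lie there by FPKM, with 3489 under 1 and 8431 from 1 to 10, against 1043 and 4960 by CPM.

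**Figure D5:**
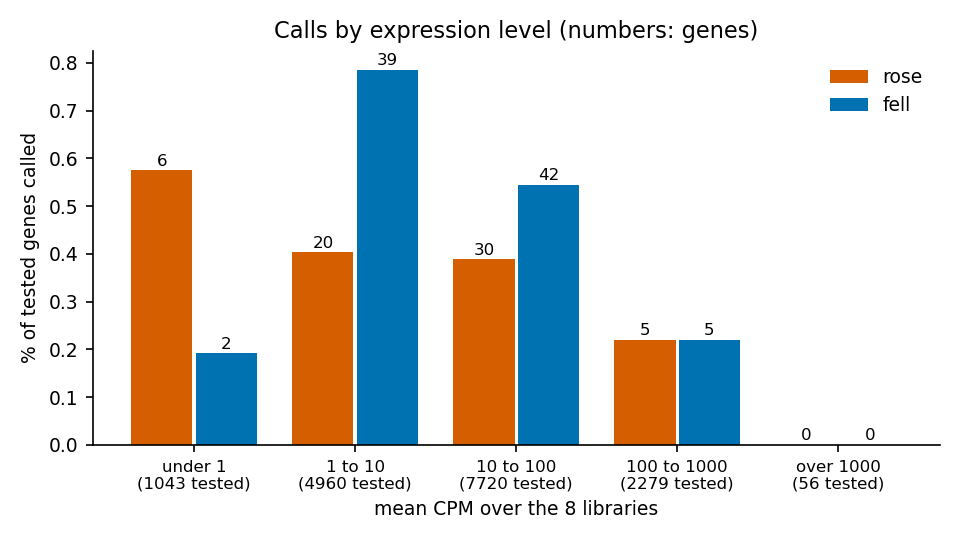
Share of tested genes called (y axis, percent) by mean CPM over the 8 libraries (x axis, with the number tested); orange bars rose, blue bars fell, and numbers above bars are genes. The fall bar is highest from 1 to 10 CPM, at 39 genes, and the class over 1000 CPM has none.

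The genes that took most reads did not pass the test. Gm26917, a noncoding model, took 5.78% to 8.63% of all counts, at 72131, 89360, 77939 and 56951 CPM at P2 and 67558, 58204, 63393 and 59044 CPM at P10 PBS (-0.26 ± 0.15, adjusted p = 0.469). Malat1, a nuclear noncoding RNA, lay at 9574 to 18451 and 10780 to 16911 CPM, and mt-Co1, of the respiratory chain, at 8062 to 13493 and 6848 to 9863 CPM. The groups overlapped in each. Scd2, a fatty acid desaturase, lay at 4934 to 9359 and 5611 to 8649 CPM.

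In absolute terms, the largest rise among called genes was that of Txn1, thioredoxin, which keeps protein thiols reduced, from 421, 384, 451 and 409 to 619, 541, 743 and 702 CPM (0.65 ± 0.12, adjusted p = 0.0248). The open reading frame 2510009E07Rik rose from 163 to 205 CPM to 255 to 295 CPM (0.63 ± 0.1), and Metrn, Fat4 and Cd109 made up the 5. Besides Fbln2, Mmp14 and Ndn, the largest falls in CPM were those of Dpysl3 and Cdk6. Dpysl3, which acts on the cytoskeleton of growing axons, went from 474, 638, 894 and 645 to 383, 326, 330 and 394 CPM (-0.89 ± 0.16). Cdk6, a kinase that drives entry into the cell cycle, lay at 224, 57.0, 191 and 189 CPM at P2 and at 26.0, 47.7, 14.9 and 16.9 CPM at P10 PBS (-2.65 ± 0.43, adjusted p = 0.0153). P2 replicate 2 was low in Cdk6 and P10 PBS replicate 2 was the highest late library, so the groups were separated by less than 10 CPM. Of 12 tested dividing-cell markers 0 were called, with a median log2 fold change of 0.48. At an unadjusted p under 0.05, 1 was higher and 0 lower, and DESeq2 called 0. Without P2 replicate 1, 8 of the 12 rose and 0 fell, where 3.6% of all tested genes rose. Lyn, a Src-family kinase, rose from 55.8, 81.1, 52.4 and 67.4 to 201, 100, 160 and 140 CPM (1.23 ± 0.2, adjusted p = 0.0153). The call of Lyn was lost without P10 PBS replicate 3, that of Cdk6 without P10 PBS replicate 1 or 3 and that of 2510009E07Rik on omitting P2 replicate 4 or P10 PBS replicate 3. Adjusted p-values then reached 0.0527, 0.0527 and 0.056. Txn1 and Dpysl3 each lost theirs without 5 of the 8 libraries, P2 replicate 4 and P10 PBS replicates 1, 3 and 4 among them, and reached 0.0871 and 0.0926.

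Among the largest relative changes, Grb10, an imprinted adaptor protein that binds the insulin receptor and dampens its signal, lay at 65.0, 8.91, 89.3 and 108 CPM at P2 and at 0.613, 0.367, 0.374 and 0.799 CPM at P10 PBS (-6.91 ± 0.82, adjusted p = 0.00327). P2 replicate 2 was low but still above every late library. Moxd1, a monooxygenase-like gene, was unequal in the early cultures, with 11.4, 12.9, 137 and 130 CPM against 1.43 to 5.59 CPM late (-4.39 ± 0.92, adjusted p = 0.044). St6gal2, a sialyltransferase, rose from 3.07, 10.4, 13.6 and 7.26 to 34.0, 54.4, 32.3 and 33.4 CPM (2.17 ± 0.36), and Cnpy1, next to En2, from 0.713 to 3.65 CPM to 24.4, 5.78, 14.9 and 21.1 CPM (2.80 ± 0.52). Klrb1c, a lectin-like receptor gene of natural killer cells, rose from at most 0.784 CPM to 1.67 to 3.07 CPM (2.58 ± 0.54). Of the 24 genes with the largest relative rises and falls, 8 held their call whichever library was left out, Grb10 among them, and the call of St6gal2 was lost without P2 replicate 4 alone. Without P2 replicates 1 to 4 in turn 24, 21, 14 and 13 of the 24 held, and without P10 PBS replicates 1 to 4, 9, 16, 11 and 16. Grb10 was not called by limma-voom (adjusted p = 0.0607).

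A few genes were detected in 1 group only, meaning at least 10 counts in each of its 4 libraries and at most 10 in sum over the other group. There were 13 such genes at P2 and 2 at P10 PBS, of which 12 and 2 were tested and 8 and 0 called. The rule asks for the difference that is then tested, so the number called describes the choice. At P2 they include Magel2, an imprinted neighbour of Ndn, with 254 counts against 5, BC026585, with 310 against 6, Zdbf2, an imprinted gene, with 186 against 5, and Galnt13, a glycosyltransferase, with 90 against 8. Rhbdf2, Tenm1, Matn4 and Vax1 are also in this set. Of these 8 calls, Rhbdf2 and Vax1 are firm; the other 6 were each lost without P10 PBS replicate 1. Slc6a15, a neutral amino acid transporter (136 counts against 8), Slitrk4, a synaptic adhesion protein (112 against 5), and Khdrbs2, an RNA-binding protein (105 against 10), did not pass, with adjusted p-values of 0.0916, 0.084 and 0.109. At P10 PBS, Foxd2os held 97 counts against 10 at P2 (adjusted p = 0.0549), 43 of them in replicate 3.

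By gene type, 136 of 13266 protein-coding genes (1.03%) were called, of which 50 rose and 86 fell. Of 1472 long noncoding RNAs 11 rose, 6 antisense transcripts and 5 intergenic, and 0 fell. The share called was 0.747%, below the 0.928% of all genes tested. At an unadjusted p under 0.05, 69 were higher and 88 lower, against 959 and 1229 of all 16058 tested genes. DESeq2 called 25 higher and 12 lower, against 232 and 360 of all. Hotairm1 is the best known of the 11, and Kank4os overlaps Kank4 on chromosome 4. Whether the counting used strand is not stated, so reads of an antisense transcript and its partner cannot be told apart. All 11 lost their call when some 1 library was left out.

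Called genes next to each other mostly changed in the same direction. Taking called genes in order along a chromosome, 15 adjacent pairs lay less than 500 kb apart, and both members changed in the same direction in 13 of them. For scale, 55.8% of 15143 such pairs among all tested genes had log2 fold changes of the same sign, at gaps that differ, and overlapping genes may share reads. The pairs were chosen after their values were seen. On chromosome 7, Ndn, Magel2 and Mkrn3 fell, in the interval from 62348277 to 62420139 (-2.0, -5.53 and -1.03). On chromosome 5, En2 and Cnpy1 rose 28.7 kb apart (3.15 and 2.80), with P10 PBS replicate 2 the lowest late library in both. On chromosome 13, Tert, the catalytic subunit of telomerase, and Slc12a7 fell 115 kb apart (-1.55 and -1.63). On chromosome 10, 4 neighbours rose, E030030I06Rik, Raet1e, Gm26581 and Gm10825, between 22113050 and 22407470 (3.30, 1.49, 2.31 and 2.11); Raet1e belongs to a family of near-identical copies whose counts are uncertain. The pairs that went opposite ways were 2510009E07Rik with Igf2bp2 and Lyn with Chchd7.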

How the data were processed

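Polyadenylated RNA was sequenced in paired-end libraries, per the labels' protocols. The authors deposited raw counts per gene and FPKM, the counts divided by gene length and library total; HISAT2 2.0.4 and StringTie 1.3.0 are in the submitters' processing notes, with no role, and no counter, strand setting or build is named in the labels. Columns were matched by library name, with 0 left unmatched. Low genes were dropped with filterByExpr (edgeR 4.0.16, minimum count 10), and counts were scaled by TMM and fitted by quasi-likelihood with 1 mean per group over 12 libraries (9 residual degrees of freedom); p-values were adjusted over 16058 genes. Alternatives used DESeq2 1.42.0 and limma 3.58.1.

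Transcription factor, surface and secreted classes were drawn from symbol patterns, and their members, the marker lists and all tests were chosen with earlier results of these data known. Named genes are the 12 largest rises and falls whose groups do not overlap with a mean of at least 1 CPM, the firm calls, up to 12 calls a class and direction by adjusted p (or the 2 most expressed of a family with none), 2 calls a level and direction, up to 10 genes found in 1 group only, and the 5 highest in level or in change of CPM. Coordinates are as deposited; of 15985 tested genes in GENCODE M21 (GRCm38), 12519 have the same ones. Sequences are from RefSeq GRCm38.p6 and were matched by symbol, which found a promoter for 112 of the 149 called genes. A few tested genes are left out of the text and plots. Marker sums and marker levels are CPM of the plain library total, other levels of the TMM-scaled one. Intervals cover counting error only.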

Additional observations from a re-analysis of the deposited data

Results flagged for a closer look

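Of 250 groups of 4 libraries formed by 125 named genes, 18 held 1 library so far from the other 3 that its gap took up nearly the whole range of the group; chance flags about 1 in 20 groups. At P2 the high libraries were those of Cd109 (P2 replicate 2 at 67.6 CPM against 26.7 to 31.9), Hoxa5 (P2 replicate 2 at 0.0731 CPM against 0 in each of the others), Jun (P2 replicate 2 at 366 CPM against 180 to 211) and Kank4 (P2 replicate 2 at 11.3 CPM against 4.45 to 5.56). Late in culture, replicate 1 stood high in Igfbp2 (P10 PBS replicate 1 at 1783 CPM against 988 to 1018), Lgals1 (P10 PBS replicate 1 at 189 CPM against 67.5 to 83.5), and Slitrk4 (P10 PBS replicate 1 at 0.341 CPM against 0 in each of the others). Late in culture, replicate 2 stood high in Matn4 (P10 PBS replicate 2 at 0.551 CPM against 0 to 0.0726) and St6gal2 (P10 PBS replicate 2 at 54.4 CPM against 32.3 to 34.0). Late in culture, replicate 3 stood high in BC026585 (P10 PBS replicate 3 at 0.468 CPM against 0 to 0.0726), Ebf2 (P10 PBS replicate 3 at 1.97 CPM against 0.826 to 0.954) and Foxd2os (P10 PBS replicate 3 at 4.02 CPM against 1.16 to 1.57). Late in culture, replicate 4 stood high in Bcl11b (P10 PBS replicate 4 at 12 CPM against 7.99 to 8.33), Grin2c (P10 PBS replicate 4 at 5.52 CPM against 0.643 to 1.4) and Rhbdf2 (P10 PBS replicate 4 at 0.0726 CPM against 0 in each of the others). Low libraries were found for 2510009E07Rik (P10 PBS replicate 2 at 255 CPM against 291 to 295), Abca9 (P10 PBS replicate 2 at 1.65 CPM against 5.59 to 5.99) and Igfbp3 (P2 replicate 3 at 273 CPM against 696 to 737). In Hoxa5, Rhbdf2, Slitrk4, BC026585 and Matn4 the library that stood out held few reads against others at or near 0. The calls of Kank4, Hoxa5 and Rhbdf2 held whichever library was left out, and those of Abca9, Cd109 and Ebf2 did not.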

How the results depend on the processing

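The number of called genes, 149 in all, was 592 with the Wald test of DESeq2, 39 with the 8 libraries alone, 2613 without the 3 libraries that hold liver transcripts and between 41 and 1172 when 1 library was left out. For transcription factors (21 called) these values were 58, 5, 143 and 6 to 80, for surface genes (22 called) 79, 8, 193 and 5 to 106, and for secreted genes (14 called) 39, 5, 86 and 4 to 45. With classes taken from Gene Ontology terms, 37 of 2655 surface genes, 15 of 728 transcription factors and 14 of 616 secreted genes were called. Each is a smaller share than in the classes drawn from symbols (2.1%, 2.49% and 3.54%). Calls under 10 numbered 67 by mean CPM and 125 by mean FPKM, by which more of the tested genes lie under 10. DESeq2 size factors, limma-voom, log2(FPKM + 1), no filter on low counts and a fold of at least 2 moved these counts by less than 1.5 times. Of 2000 values of 125 named genes under these alternatives, 0 changed sign against a call, 335 lost a call and 39 gained one.

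Same-numbered libraries share a culture code in the labels, which do not say what it stands for. Deviations of same-numbered libraries from their group means correlated at -0.0154, -0.0845, -0.00614 and 0.211 for replicates 1 to 4. For 2 of 8 libraries the best match was the one with its own number. With only 4 libraries a group, these values cannot decide whether same-numbered libraries are paired. With a replicate block, 167 genes were called, 64 higher and 103 lower, and 112 of the 149 calls held; 13 of 78 named calls did not, with adjusted p-values of 0.0504 to 0.0707. Depth limits genes under 1 CPM, where the median standard error was 0.487 on the log2 scale.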
